A study of Mus musculus with 6 samples.

Results

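The 10 genes described here encode fibronectin (Fn1) and the secreted, cell-regulating proteins that sit beside it in the extracellular matrix. They are SPARC and its relatives (Sparc, Sparcl1, Smoc1 and Smoc2), the thrombospondins Thbs1, Thbs2 and Thbs3, tenascin C (Tnc) and periostin (Postn). They were picked by gene symbol from a count table of 54532 genes, and all 10 passed the filter on low counts that left 14801 genes for testing. Their choice was made with the difference between the study's populations already known and because Fn1 or Sparc led most libraries, so the levels and fold changes below describe these libraries and carry no test of their own.

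The study sorted cells from cartilage of 1-month-old Gli1-CreERT2; tdTomato mice on a c57BL/6 background, harvested 24 h after tamoxifen. CreERT2 is driven by the Gli1 locus, so tamoxifen switches on the red reporter tdTomato in cells that express Gli1, a transcription factor of the hedgehog pathway. Cells negative for CD45, CD31 and Ter119 were split into tdTomato+ (Gli1+) and tdTomato- (Gli1-) populations from the same mice, with 3 poly-A RNA-seq libraries of each. The comparison asked which transcripts set Gli1+ cells apart from their Gli1- neighbours. The samples are labelled as growth plate, whereas the study's account of this experiment names costal cartilage, and the costal preparation included an overnight collagenase digestion in growth medium. How many mice gave each library is not stated in the sources used here. All 6 libraries carry the same alleles and the same tamoxifen exposure, and a tdTomato- cell may be one that expressed Gli1 and did not recombine.

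Fibronectin is a large glycoprotein that cells assemble into fibrils through integrins, and it is laid down early when mesenchymal cells condense into cartilage. Matricellular proteins are secreted into the same matrix but mainly tune how cells attach, respond to growth factors and assemble collagen, rather than bearing load. SPARC binds collagen and calcium. Thrombospondins bind integrins and collagens, and the product of Thbs1 can release TGF-beta from its latent form. Tenascin C weakens adhesion to fibronectin, and periostin promotes collagen cross-linking in fibrous tissue around bone and cartilage.

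Libraries held 17114101 to 18602482 counts each. Gli1+ replicate 1 had a count for 15000 genes, against 20666 to 23360 in the other 5 libraries. Gli1 itself averaged 6.31 ± 1.72 CPM (counts per 1000000 counts on the tested genes) in the Gli1+ libraries and 1.47 ± 0.87 in the Gli1- libraries (SD, n = 3 each), with no overlap. CPM values were scaled between libraries by edgeR's trimmed mean of M values (TMM). Cartilage collagen was plentiful throughout, with Col2a1 between 2130 and 13530 CPM. All 15 chondrocyte markers were detected in both populations, but Matn1 had 0 counts in Gli1+ replicate 1. Leukocyte markers summed to 41.1 to 168.4 CPM in the Gli1+ libraries and to 58.1, 184.2 and 3375 CPM in the Gli1- libraries, the highest being Gli1- replicate 1, where the CD45 gene Ptprc reached 54.7 CPM after the CD45- gate. Both libraries numbered 2 stood apart from the rest, with the highest Sparc and Col2a1 and the lowest Fn1 in their populations. In bulk RNA, fewer cells of a type and less RNA per cell cannot be told apart.

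The motif by which integrins hold fibronectin is written in its transcript, and codons for the same motif occur in Thbs1 and Thbs2. An in-frame run of codons for arginine, glycine and aspartate stood in the longest coding sequence of 3 of the 10 genes, against 7.25% of 21584 protein-coding genes in the GENCODE M21 annotation (GRCm38, the assembly also called mm10). The stretches are shown because Fn1, Thbs1 and Thbs2 all hold this run, and no other shared feature was searched for. The share over all genes was not adjusted for length. The coding sequences of these 3 genes have 2477, 1171 and 1172 residues, while Tnc with 2110 held no such run. Capitals mark the codons of the motif, each with 18 coding bases on either side, 5′ to 3′ on the coding strand.
Fn1, minus strand, exon 30, chr1:71606728-71606772: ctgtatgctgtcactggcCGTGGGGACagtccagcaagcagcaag
Fn1, minus strand, exon 40, chr1:71597425-71597469: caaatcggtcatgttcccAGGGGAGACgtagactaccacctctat
Thbs1, plus strand, exons 17 and 18 joined, chr2:118122671-118122908: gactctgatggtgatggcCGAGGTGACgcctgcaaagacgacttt
Thbs2, minus strand, exons 17 and 18 joined, chr17:14671466-14673153: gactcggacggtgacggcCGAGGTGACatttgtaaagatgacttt
The exon 30 stretch of Fn1 is the known cell-binding site of fibronectin. The Thbs1 and Thbs2 stretches use identical codons for the motif, differ from both Fn1 stretches, and lie across the junction of the same pair of exons. The counts are per gene, so they do not tell which spliced forms of Fn1 were made.

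The 10 genes took a large part of every library. They held 8.09%, 3.15% and 6.65% of all counts in Gli1+ replicates 1, 2 and 3, and 2.66%, 3.96% and 3.48% in Gli1- replicates 1, 2 and 3. The means were 5.97 ± 2.54% and 3.37 ± 0.66% (SD, n = 3 each), a difference of 2.60 percentage points that ranged from 1.53 to 4.002 when each library was left out in turn. The populations overlapped, because Gli1+ replicate 2 lay below 2 of the Gli1- libraries. Fn1 and Sparc together made up 87.7% to 93.6% of the members' counts in each library, and the other 8 genes held 0.48 ± 0.09% of counts in Gli1+ cells and 0.38 ± 0.05% in Gli1- cells. These shares are of raw counts, so each also depends on what every other gene contributes to its library.

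**Figure D1:**
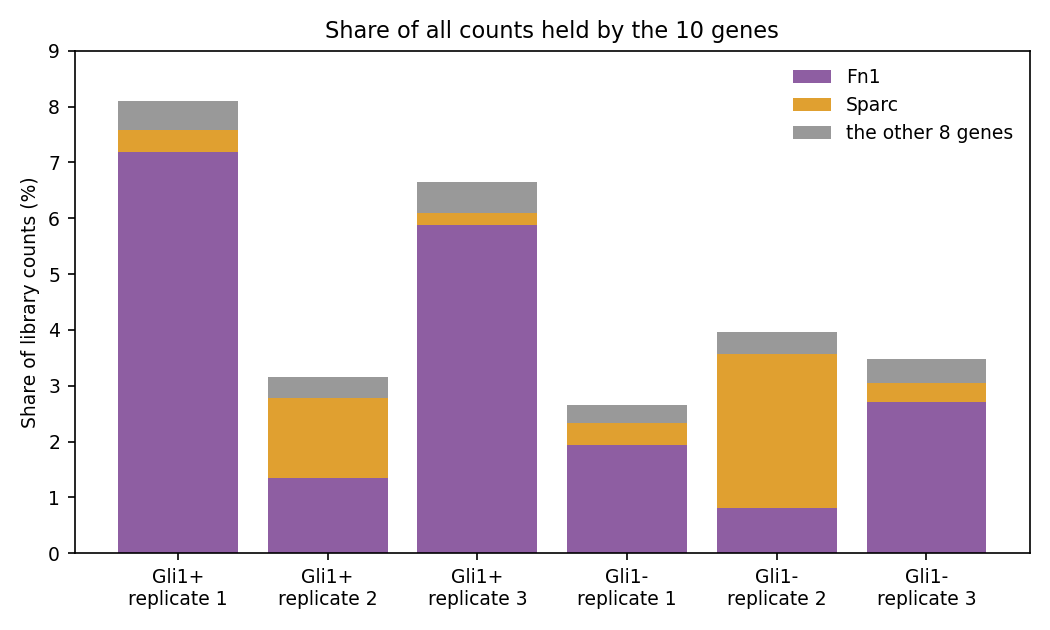
Bars give the percentage of all counts in each of the 6 libraries that fell on Fn1, on Sparc and on the other 8 genes together, stacked from 0. Fn1 filled most of the bar in 4 libraries, whereas Sparc took 1.42% and 2.75% in the replicates numbered 2.

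Scaled per kilobase of the length given in the table, Fn1 led in Gli1+ cells with a mean of 3998 CPM per kb, followed by Sparc (1903) and Thbs1 (608). All 3 stood above the range of Tnc (59.9), the next in order. Sparc and Thbs1 overlapped, and in Gli1+ replicate 3 Thbs1 (726.5 CPM per kb) exceeded Sparc (547.3). Smoc2 (52.1) came after Tnc and overlapped it, then followed Postn (14.9), Thbs3 (14.6), Smoc1 (11.2), Sparcl1 (8.71) and Thbs2 (5.05), all from Postn on below the range of Smoc2 and overlapping from each to the next. In Gli1- cells the mean level per kb was highest for Sparc (3574), then Fn1 (1478) and Thbs1 (381), and neither Fn1 and Thbs1 nor Thbs1 and Smoc2 (99.8) overlapped. Sparc and Fn1 themselves overlapped in both populations, and without the length scaling Fn1 came before Sparc in both. Per kb, Fn1 exceeded Sparc in Gli1- replicates 1 (1471 against 947.8) and 3 (2101 against 812.5). The higher Gli1- mean of Sparc came from replicate 2 (8963 against 863.5 for Fn1). Smoc1 was lowest in Gli1- cells at 4.26 CPM per kb. Sparcl1 was in place 5 of the 10 there (65.0) and in place 9 in Gli1+ cells.

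**Figure D2:**
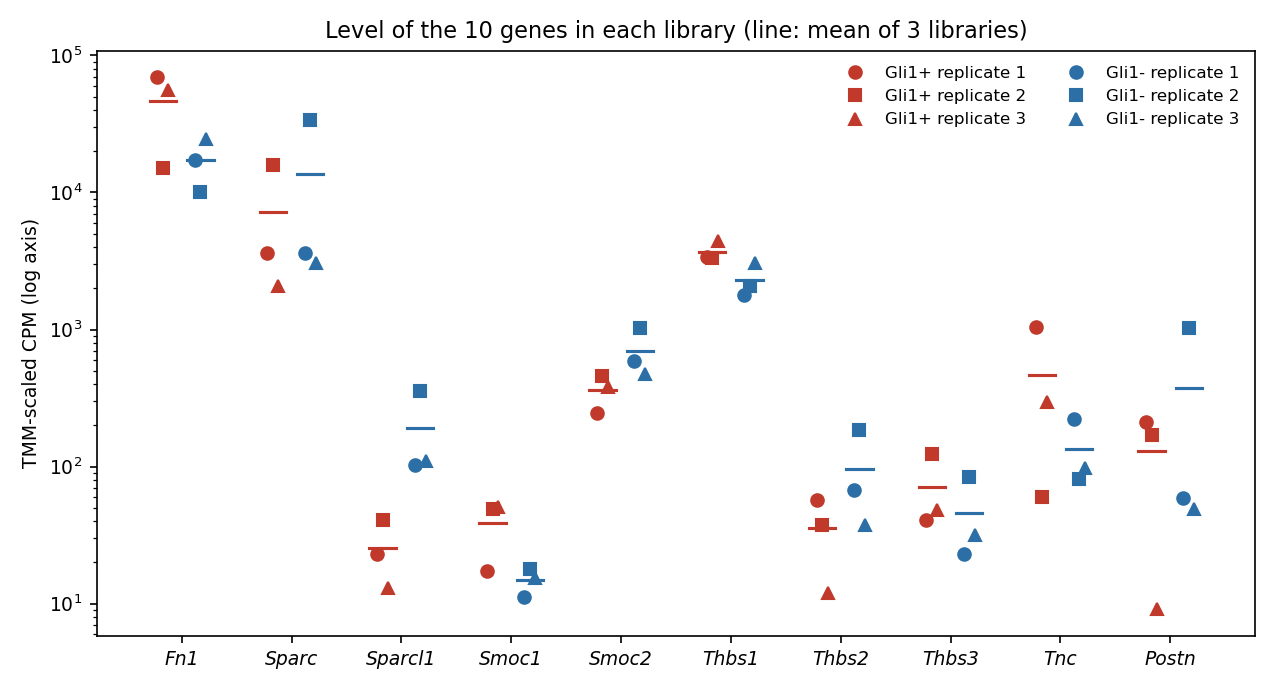
Each point is the TMM-scaled CPM of a gene in a library on a log axis, with red for Gli1+ and blue for Gli1-, the marker shape for the replicate number and a line for the mean of 3 libraries. Red and blue points separate fully for Sparcl1, Smoc2 and Thbs1, while Sparc and Postn spread over more than a 10-fold range within the Gli1- libraries.

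Between populations, 5 of the 10 genes had a log2 fold change (Gli1+ over Gli1-) above 0 and 5 below, with a median of -0.15 against 0.0013 over all genes tested. The change was over 1 in size for 6 of them, Fn1, Tnc and Smoc1 above and Sparcl1, Postn and Thbs2 below, where 16.7% of all genes tested were. With edgeR's quasi-likelihood test and Benjamini-Hochberg adjustment, calling at an absolute log2 fold change above 1 and an adjusted p below 0.05, 0 of the 10 and 0 of all 14801 genes (0.0%) were called, and the smallest adjusted p over all genes was 0.9999. At an unadjusted p under 0.05 that test held 514 genes (3.47%), Sparcl1 and Smoc1 among them. DESeq2's Wald test called 30 genes (0.203%, with 0.101% lower in Gli1+), of the members Sparcl1, which was lower. DESeq2 with the replicate number as a block called 428 genes (2.89%), 0.777% higher and 2.11% lower in Gli1+, and of the members Fn1 (higher) and Sparcl1 (lower). The same block in edgeR called 0 (0.0%), while edgeR with no filter on low counts called 267 of 28536 genes (0.936%), again with Sparcl1. In settings chosen after seeing the data, DESeq2 with the block called 4 members, Sparcl1, Postn, Thbs2 and Smoc1, without both libraries numbered 1 (5.09% of genes called) and 2 members, Sparcl1 and Tnc, without both numbered 2 (1.15%). Those fits estimate the spread from fewer libraries, so their calls and adjusted p-values are unstable.

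Values from the populations did not overlap for 3 of the 10, Thbs1 (higher in Gli1+), Sparcl1 and Smoc2 (both lower), against 8.49% of all genes tested, 4.04% higher and 4.45% lower. Comparing libraries of the same number, 4 genes were higher in Gli1+ in 3 of 3 pairs (Fn1, Thbs1, Thbs3 and Smoc1) where 17.6% of all genes were, and 3 were lower in 3 of 3 pairs (Sparcl1, Thbs2 and Smoc2) where 19.8% were. Tnc, Sparc and Postn were mixed.

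**Figure D3:**
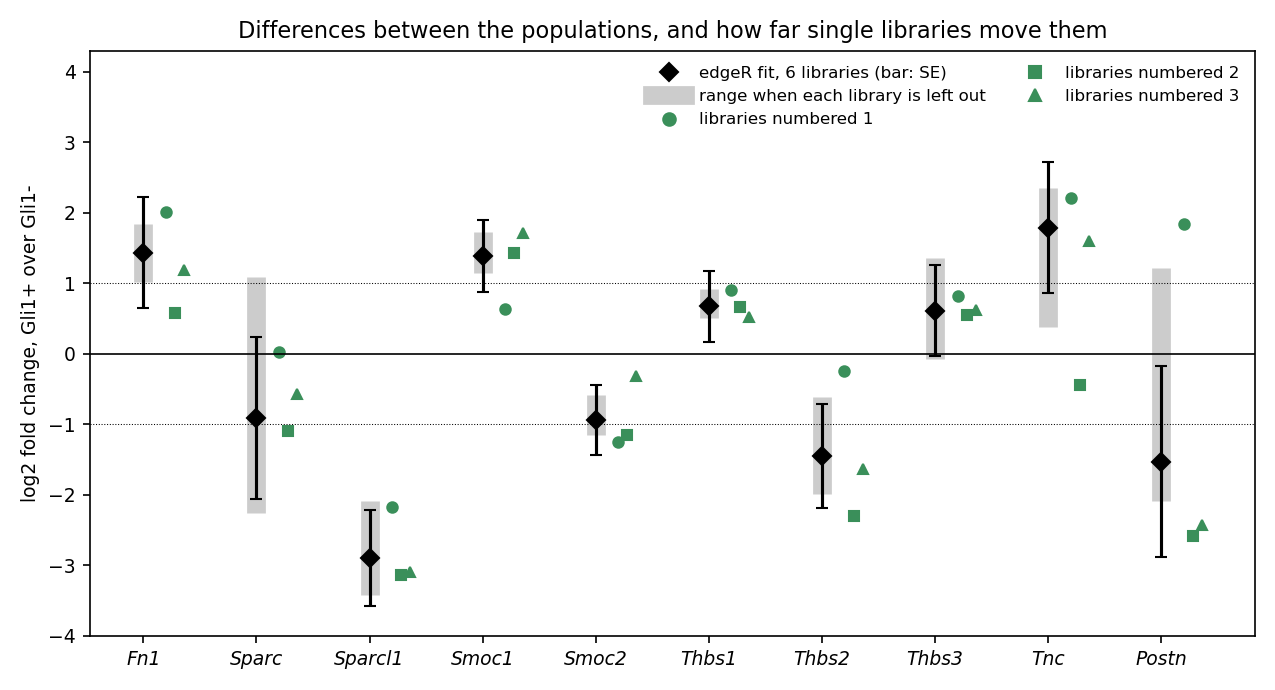
Black diamonds show the log2 fold change of each gene with its SE from edgeR, grey bars the range of that value when each of the 6 libraries was left out, and green symbols the log2 ratio of Gli1+ to Gli1- in libraries of the same number. For Sparc, Postn and Thbs3 the grey bar crosses 0, and for Sparcl1 it stays between -3.43 and -2.09.

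Fn1 (chr1:71585520-71653200, minus strand) was the most counted gene in 4 of the 6 libraries. Its level was 69130, 15110 and 55910 CPM in Gli1+ replicates 1, 2 and 3, and 17190, 10090 and 24560 CPM in Gli1- replicates 1, 2 and 3. Gli1+ replicates 1 and 3 lay above every Gli1- library, and Gli1+ replicate 2 lay within the Gli1- range. Its share of all counts averaged 4.81 ± 3.07% in Gli1+ cells and 1.82 ± 0.95% in Gli1- cells. The fitted difference was 2.70-fold (log2 fold change 1.43, SE 0.79), and it stayed between 1.02 and 1.84 when each library was left out. Within pairs the log2 ratio was 2.01, 0.58 and 1.19, highest in the pair that holds the Gli1+ library with the fewest detected genes. DESeq2 with the replicate block gave Fn1 1.25 (adjusted p = 0.0389), and the call was lost without both libraries numbered 1 (0.87, adjusted p = 0.768) and without both libraries numbered 2 (1.58, adjusted p = 0.0923).

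Genes that bind fibronectin or help assemble it did not lean to either side as a list. Of 15 listed integrins, syndecans and adhesion proteins 14 were tested, 7 lay above 0 and 7 below, the median was -0.04, and neither edgeR nor DESeq2 with the block called any. The most abundant were Sdc4, a heparan sulphate proteoglycan that acts as a coreceptor (log2 fold change -0.29, SE 0.55), Itga5, the alpha chain of the classical fibronectin receptor (0.50, SE 0.72), and its partner Itgb1 (0.23, SE 0.52). For none of these 3 did the populations separate. Of the whole list only Itgb5 did, at 37.25 to 57.72 CPM in Gli1+ and 69.35 to 82.54 CPM in Gli1- libraries (-0.67, SE 0.37). Over all genes tested, 4.45% were lower in Gli1+ without overlap.

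Sparc (chr11:55394500-55423183, minus strand), the collagen-binding founder of its family, followed the replicate number more than the population. It measured 3640, 15910 and 2073 CPM in the Gli1+ libraries and 3590, 33950 and 3078 CPM in the Gli1- libraries, in the order of replicates 1, 2 and 3. Both libraries numbered 2 were far above the other 4, which all lay between 2073 and 3640 CPM. Sparc was the most counted gene in Gli1- replicate 2 and the one after Eef1a1, a translation elongation factor, in Gli1+ replicate 2. Its log2 fold change of -0.91 (SE 1.15) turned to 1.09 without Gli1- replicate 2 and reached -2.26 without Gli1+ replicate 2, and the difference in its mean share of counts, -0.49 percentage points, turned to 0.30 without Gli1- replicate 2. Compared within pairs the log2 ratio was 0.02, -1.09 and -0.57.

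Fn1 and Sparc changed places between the numbers. Gli1+ replicates 1, 2 and 3 held 18.99, 0.95 and 26.97 Fn1 counts per Sparc count, and Gli1- replicates 1, 2 and 3 held 4.79, 0.30 and 7.98. The ratio was higher in Gli1+ in 3 of 3 pairs, and the populations overlapped because both libraries numbered 2 were below 1. Other transcripts were also highest in the libraries numbered 2. Summed chondrocyte markers reached 28740 and 41940 CPM there, against 9880 to 12100 elsewhere, and summed tendon and ligament markers 853 and 2310 CPM, against 259 to 537 elsewhere. Between populations, 4 chondrocyte markers had a log2 fold change above 0 and 11 below (median -0.24). DESeq2 with the block called Matn1, Comp and Chad lower, and edgeR called none. Of these, Chad did not overlap between populations (-1.83, SE 0.63). None of the genes on these lists was at 0 in all libraries, and the part of these markers in the Sparc values was not tested.

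Sparcl1 (chr5:104079111-104113733, minus strand), also known as hevin, is the nearest relative of SPARC and a secreted anti-adhesive glycoprotein. It was the member that differed most. It measured 23.0, 40.8 and 13.0 CPM in Gli1+ replicates 1, 2 and 3, and 103.5, 358.7 and 110.5 CPM in Gli1- replicates 1, 2 and 3. Every Gli1- library lay above every Gli1+ library. The fitted level was 7.47-fold lower in Gli1+ cells (log2 fold change -2.90, SE 0.68), which ranged from -3.43 to -2.09 with each library left out, and its adjusted p in edgeR was 0.9999. DESeq2's Wald test called it (adjusted p = 0.0218). With the replicate block DESeq2's adjusted p was 2.88e-11. The call held without both libraries numbered 1 (log2 fold change -3.125, adjusted p = 6.02e-38) and without both numbered 2 (-2.645, adjusted p = 0.00118). Those fits estimate the spread from fewer libraries, so the smaller adjusted p is no firmer evidence. With the same block in edgeR the adjusted p was 0.307, the smallest of all genes tested. Markers of endothelium, where Sparcl1 is also known to be expressed and which the CD31- gate should remove, summed to 4.34 to 5.88 CPM in Gli1+ and 5.18 to 22.6 CPM in Gli1- libraries, with 4 of 7 tested and all 4 below 0. Pericyte and smooth muscle markers, which the gate does not address, lay above 0 for 2 and below 0 for 5 of 7 tested (median -0.21), and summed to 571 to 980 CPM in Gli1+ and 303 to 744 CPM in Gli1- libraries, mostly from Cspg4. Of that list Rgs5 (0.16 to 2.91 CPM in Gli1+ and 3.39 to 6.23 CPM in Gli1-), Notch3 (0 to 0.74 and 1.13 to 3.36 CPM) and Myh11 (0 to 0.37 and 0.78 to 1.48 CPM) were lower in Gli1+ cells without overlap, and Kcnj8 had 0 counts in all Gli1+ libraries and 1 to 8 in the Gli1- libraries. These genes were low, were named after their values were seen, and 4.45% of all genes tested were lower without overlap. The rest of the list overlapped. Acta2 (log2 fold change 1.24, SE 0.81) and Cspg4 (0.22, SE 0.56) went the other way, and Mcam gave -0.21 (SE 0.49) and Des -0.02 (SE 1.03). Of the endothelial list Pecam1, the CD31 gene, was lower in Gli1+ cells without overlap (0.80 to 1.79 against 2.06 to 6.05 CPM). The other endothelial markers overlapped. Neither edgeR nor DESeq2 with the block called any gene of these lists of endothelial and mural markers. Fibroblast and perichondrial markers were below 0 for 12 of 13, with a median of -1.25 and summed levels of 1870 to 4133 CPM in Gli1+ and 2339 to 9584 CPM in Gli1-. DESeq2 with the block called 5 of those lower, namely Pdgfra, Fap, Col3a1, Dpt and Ly6a. Pdgfra was lower without overlap (43.12 to 85.45 CPM in Gli1+ and 206.2 to 355.2 CPM in Gli1-), and the rest of that list overlapped. The part of all these markers in the Sparcl1 values was not tested.

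Smoc1 and Smoc2 encode closely related secreted calcium-binding proteins of basement membranes and cartilage, and they lay on opposite sides. Smoc1 (chr12:81026808-81186414, plus strand), which modulates BMP signalling, measured 17.4, 48.8 and 50.8 CPM in Gli1+ replicates 1, 2 and 3, and 11.22, 18.04 and 15.45 CPM in Gli1- replicates 1, 2 and 3. Gli1+ replicates 2 and 3 stood above all Gli1- libraries, whereas Gli1+ replicate 1 fell just under Gli1- replicate 2. Its log2 fold change was 1.39 (SE 0.51), between 1.15 and 1.72 with each library left out, and DESeq2 with the block gave an adjusted p of 0.0519.

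Smoc2 (chr17:14279506-14404790, plus strand) was more abundant and ran the other way. It measured 245.2, 458.5 and 382.4 CPM in Gli1+ replicates 1, 2 and 3, and 585.4, 1021 and 474.3 CPM in Gli1- replicates 1, 2 and 3. The populations did not overlap, but the highest Gli1+ library was only just under the lowest Gli1- library. The fitted level was 1.92-fold lower in Gli1+ cells (log2 fold change -0.94, SE 0.50, from -1.16 to -0.58 with each library left out). DESeq2 with the block did not call it (adjusted p = 0.135).

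Taken as a ratio within a library, which no scaling between libraries can alter, Smoc1 counts per 1000 Smoc2 counts were 71.0, 106.5 and 132.8 in Gli1+ replicates 1, 2 and 3. In Gli1- replicates 1, 2 and 3 they were 19.2, 17.7 and 32.6. The populations were apart by 2.17 on the log2 scale, and by 1.97 to 2.44 when each library was left out. Sparcl1 per 1000 Sparc counts behaved in the reverse direction, at 6.31, 2.56 and 6.26 in Gli1+ and 28.8, 10.6 and 35.9 in Gli1-, a log2 difference of -2.25 (-2.79 to -1.82 with each library left out). Neither ratio overlapped between populations, although the genes on both sides of each were picked with this contrast known.

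**Figure D4:**
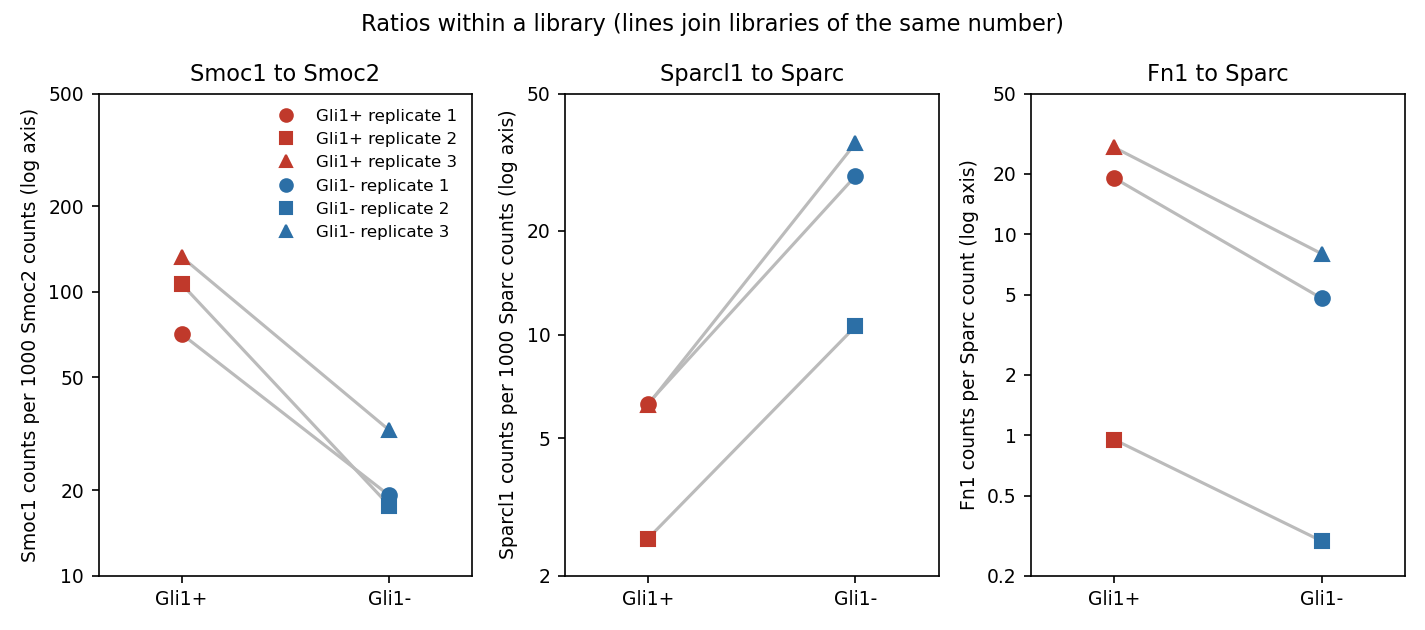
The panels plot on log axes the counts of Smoc1 per 1000 of Smoc2, of Sparcl1 per 1000 of Sparc and of Fn1 per count of Sparc in each library, and lines join libraries of the same number. The first is higher in every Gli1+ library than in any Gli1- library and the middle one lower, while for Fn1 to Sparc the replicates numbered 2 lie far below the others in both populations.

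Of the other 4 genes listed in the SPARC family, Spock3 was too low to test. Fstl1, a secreted follistatin-like glycoprotein, was the most abundant, and its log2 fold change was -0.25 (SE 0.53). Spock1 and Spock2, proteoglycans of the same family, gave 0.20 (SE 1.16) and -0.57 (SE 0.62). None was called by edgeR or by DESeq2 with the block.

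Thbs1 (chr2:118111876-118127133, plus strand), an activator of latent TGF-beta, had the third highest mean of the 10 per length in both populations. It measured 3359, 3302 and 4412 CPM in Gli1+ replicates 1, 2 and 3, and 1797, 2091 and 3061 CPM in Gli1- replicates 1, 2 and 3. The highest library was 1.34 times the lowest among Gli1+ and 1.70 times among Gli1- libraries, the first being the smallest spread of the 10 genes, and no Gli1- library reached the Gli1+ range. The fitted difference was small, 1.59-fold (log2 fold change 0.67, SE 0.50), with pair ratios of 0.90, 0.66 and 0.53 on the log2 scale, so it lay under the fold that a call requires. Leaving out each library gave 0.51 to 0.92.

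Thbs2 (chr17:14665500-14694235, minus strand), whose protein resembles that of Thbs1 but lacks the TGF-beta activating part, lay on the other side of 0. It measured 56.9, 37.2 and 12.03 CPM in the Gli1+ libraries and 67.6, 184.4 and 37.5 CPM in the Gli1- libraries. It was lower in Gli1+ in every pair, yet the populations overlapped because Gli1- replicate 3 was down among the Gli1+ libraries. The log2 fold change was -1.45 (SE 0.74, from -1.99 to -0.62 with each library left out), and DESeq2 with the block gave an adjusted p of 0.0672.

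Thbs3 (chr3:89215180-89226837, plus strand), a pentameric thrombospondin expressed in skeletal tissue, measured 40.5, 123.0 and 48.4 CPM in the Gli1+ libraries and 22.9, 84.2 and 31.5 CPM in the Gli1- libraries. Both libraries numbered 2 were the highest of their population, and Gli1+ was the higher member of every pair, by 0.82, 0.55 and 0.62 on the log2 scale. The unpaired log2 fold change was 0.61 (SE 0.64) and turned to -0.069 without Gli1+ replicate 2. On the opposite strand it overlaps Mtx1, a mitochondrial import gene, whose count came to as much as 67.2% of that of Thbs3 in a library. The strand setting of the counting is not given in the sources used here, so the Thbs3 values are uncertain to that extent.

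The remaining thrombospondins, Thbs4 and Comp, pentameric proteins of tendon and cartilage, both had lower means in Gli1+ cells. Comp measured 637, 1548 and 483 CPM in Gli1+ and 1614, 4952 and 1090 CPM in Gli1- replicates 1, 2 and 3 (log2 fold change -1.52, SE 0.76). Thbs4 measured 91.5, 179.9 and 18.6 CPM in Gli1+ and 207.5, 889.5 and 85.0 CPM in Gli1- libraries (-2.03, SE 1.02). Both were lower in every pair and were called by DESeq2 with the block (adjusted p = 3.66e-04 for Comp and 6.05e-05 for Thbs4), but not by edgeR. Comp is also on the chondrocyte list, so its call there is the same one. Thbs1 and Thbs3 lay above 0 and Thbs2, Thbs4 and Comp below it. Of the 6 thrombospondin receptors, 3 lay above 0 and 3 below, and neither tool called any. Among them Lrp1, an endocytic receptor, gave 0.19 (SE 0.79) and Calr -0.07 (SE 0.47), Cd47 gave -0.24 (SE 0.72), and Cacna2d1, a calcium channel subunit that binds thrombospondins, was 1.04 (SE 0.45) without overlap between populations.

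Tnc (chr4:63959785-64047015, minus strand) spanned 17.3-fold among the Gli1+ libraries. It measured 1039, 60.1 and 296.7 CPM in Gli1+ replicates 1, 2 and 3, and 224.0, 81.3 and 98.2 CPM in Gli1- replicates 1, 2 and 3. Gli1+ replicate 1 held most of its Gli1+ signal, and Gli1+ replicate 2 was the lowest of all 6 libraries. The log2 fold change of 1.79 (SE 0.93) dropped to 0.38 without Gli1+ replicate 1 and rose to 2.36 without Gli1- replicate 1. DESeq2 with the block did not call it (1.14, adjusted p = 0.293), but did without both libraries numbered 2 (1.89, adjusted p = 0.0221). An antisense neighbour, 8030451A03Rik, held at most 1.29% of the Tnc count. Of the other tenascins Tnr was too low to test. Tnn, tenascin W, gave -0.02 (SE 0.70), and Tnxb, the tenascin of loose connective tissue, gave -1.25 (SE 0.78), was lower in Gli1+ cells in every pair and was called by DESeq2 with the block (adjusted p = 0.0262).

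Postn (chr3:54361109-54391037, plus strand), a marker of periosteum and perichondrium, had the widest spread of the 10 in both populations. It measured 211.6, 169.0 and 9.14 CPM in the Gli1+ libraries and 59.3, 1018 and 49.3 CPM in the Gli1- libraries, in the order of replicates 1, 2 and 3. Gli1- replicate 2 stood far above the other 5 libraries, and Gli1+ replicate 3 was the lowest. The pairs pointed in different directions, at 1.84, -2.59 and -2.43 on the log2 scale. Its log2 fold change of -1.53 (SE 1.36) turned to 1.22 without Gli1- replicate 2. With all libraries, DESeq2 with the block did not call it (-1.31, adjusted p = 0.462). Leaving out both libraries numbered 1, DESeq2 with the block called it lower (-2.53, adjusted p = 4.30e-26), and leaving out both numbered 2 it did not (-0.31, adjusted p = 0.981). Fits on so few libraries estimate the spread poorly, so these adjusted p-values are unstable. Tendon and ligament markers were also highest in Gli1- replicate 2 and lay below 0 for 5 of 5 (median -1.23), of which DESeq2 with the block called Fmod and Kera, and their part in the Postn values was not tested.

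Tgfbi, the nearest relative of periostin and a TGF-beta-induced adhesive protein, ran against it. It measured 232.2, 610.9 and 139.4 CPM in Gli1+ and 117.9, 323.0 and 59.5 CPM in Gli1- replicates 1, 2 and 3, so it was higher in Gli1+ in every pair (log2 fold change 0.97, SE 0.76) and was called by DESeq2 with the block (adjusted p = 0.0217). Stab1 and Stab2, scavenger receptors with fasciclin domains, were under 5 CPM in all libraries and gave -1.31 (SE 1.38) and -0.23 (SE 0.97). Of 8 enzymes and cofactors of collagen processing and cross-linking, 3 lay above 0 and 5 below. Loxl2, a lysyl oxidase of cartilage and fibrous matrix, measured 925.1, 181.7 and 867.8 CPM in Gli1+ and 180.7, 97.5 and 214.8 CPM in Gli1- libraries (log2 fold change 2.002, SE 0.68), and DESeq2 with the block called it higher (adjusted p = 0.00109) and called Pcolce, an enhancer of collagen propeptide cleavage, lower (adjusted p = 0.00235). Lox itself differed by -0.03 (SE 0.60) and Loxl4 by 0.85 (SE 0.48).

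**Figure D5:**
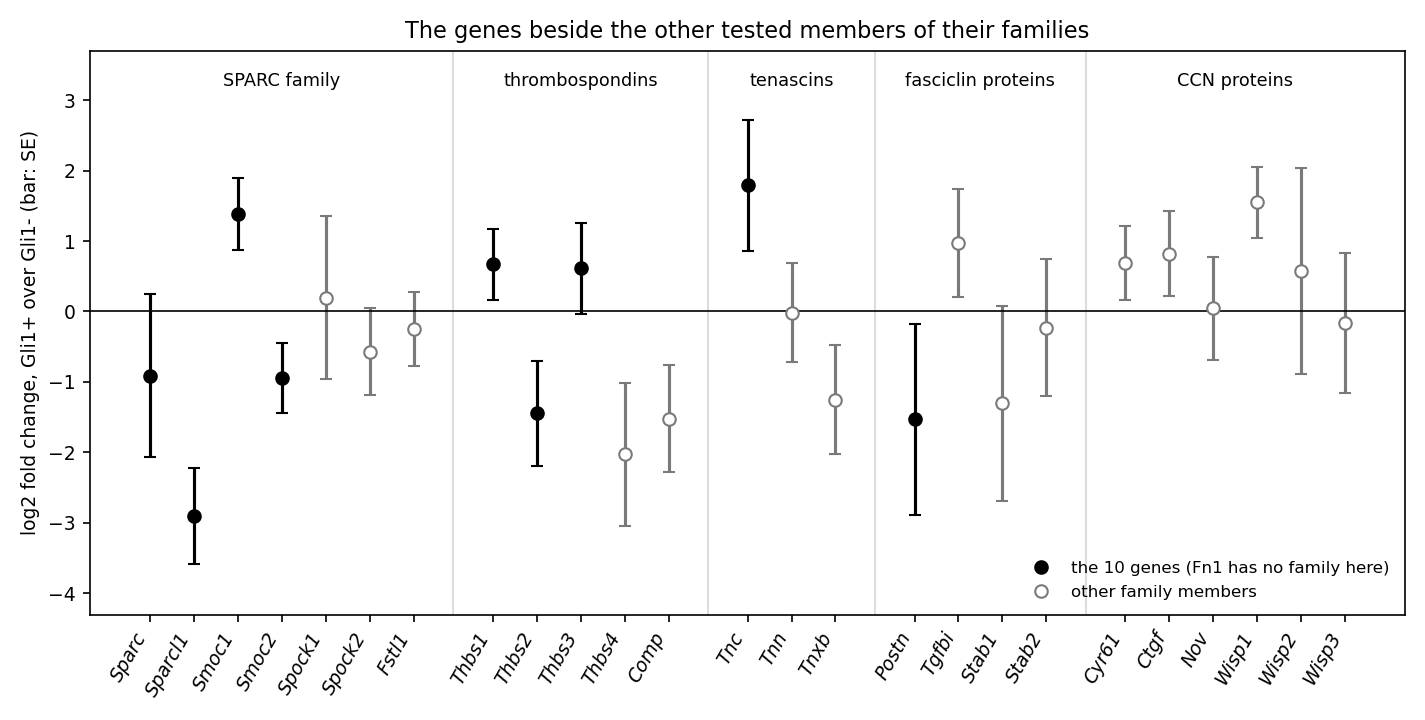
Points are log2 fold changes (Gli1+ over Gli1-) with SE from edgeR for the 10 genes (black, without Fn1) and the other tested genes of their families (open). Members of a family fall on both sides of 0 in the SPARC, thrombospondin, tenascin and fasciclin groups, and 5 of the 6 CCN genes lie above 0.

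CCN proteins are another matricellular family, linked to TGF-beta and to mechanical load, and 5 of the 6 had a log2 fold change above 0 with a median of 0.63. Ctgf (CCN2) measured 4492, 6451 and 11310 CPM in Gli1+ and 4246, 2710 and 5636 CPM in Gli1- replicates 1, 2 and 3 (0.82, SE 0.61), higher in every pair, although the populations overlapped. Wisp1 (CCN4) measured 195.8, 93.9 and 272.8 CPM in Gli1+ and 43.3, 66.6 and 82.6 CPM in Gli1- libraries. Its populations did not overlap, its log2 fold change was 1.55 (SE 0.51), and DESeq2 with the block called it (adjusted p = 0.0225). Cyr61 (CCN1) gave 0.69 (SE 0.52), Wisp2 0.57 (SE 1.47), Nov 0.04 (SE 0.73) and Wisp3 -0.17 (SE 0.99).

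Of 15 other adhesive glycoproteins tested, 7 lay above 0 and 8 below (median -0.18). Nid2, a basement membrane linker, was 180.3, 96.4 and 211.0 CPM in Gli1+ and 58.3, 48.9 and 80.2 CPM in Gli1- libraries (1.38, SE 0.45), without overlap, and was the only gene of the list that DESeq2 with the block called (adjusted p = 0.00400). Spp1, or osteopontin, and Emilin1 were the other abundant members of that group beside Aebp1, with log2 fold changes of -0.54 (SE 0.79), 0.41 (SE 0.59) and 0.94 (SE 0.47). Among 13 tested genes known to be induced by TGF-beta or serum in fibroblastic cells, 11 lay above 0, where 50.1% of all genes did, with a median of 0.93. DESeq2 with the block called Tpm1, Ltbp2, Cnn1 and Tgfbi of these, and edgeR called none of either list. The TGF-beta and serum list was written with earlier results of these data known, so its counts are a description. It shares Ctgf and Cyr61 with the CCN list, Tgfbi with the fasciclin list and Itgb5 with the fibronectin list. Acta2 is also on the mural list and Col1a1 on the fibroblast list, so those counts are not separate.

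Genes whose log2 CPM tracked a member most closely were sought among 8451 genes with a mean of 10 CPM or more, over the 6 libraries, which share pairs and the contrast itself. The values are a description, since a Pearson coefficient over so few libraries is high for many genes. Fn1 was followed by Cldn12 (r = 0.999), Il1rap (0.997) and Glce (0.992), with Il1rap at 49.5, 15.2 and 42.2 CPM in Gli1+ and 15.2, 9.15 and 21.0 CPM in Gli1- replicates 1, 2 and 3. Sparc was followed by Eid1 (0.997), Cthrc1 (0.996) and Pth1r (0.993), with Cthrc1 at 18.2 and 46.2 CPM in the libraries numbered 2 and between 0.79 and 2.75 CPM in the others. Cpm (0.986) and Gm525 (0.986) were among the closest to Sparcl1, and Smoc1 was followed by Adm2 (0.993), Ppif (0.986) and Aaas (0.977). Adm2 measured 15.4, 67.7 and 74.6 CPM in Gli1+ and 10.5, 18.3 and 17.8 CPM in Gli1- libraries.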

How the data were processed

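Per the submitters' processing notes, reads were aligned to mm10 with HISAT2 2.0.5 and counted per gene with featureCounts 1.5.0-p3. The deposited values were raw counts, which the authors had not normalised. The annotation and the strand setting are not given in the sources used here.

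Groups came from the sample titles, 3 libraries per population. Counts were filtered with filterByExpr (minimum count 10), scaled by TMM and tested in edgeR 4.0.16 (quasi-likelihood test, R 4.3.3), with SE taken as the absolute log2 fold change over the square root of F. The Benjamini-Hochberg adjustment covered the 14801 tested genes. DESeq2 1.42.0 and limma 3.58.1 (voom) served as alternatives, beside other scalings, filters, a replicate block and leaving out libraries. The scripts were tested on simulated counts. Coding sequences came from GENCODE M21.

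Libraries of the same number deviated together from their population means (correlations 0.22, 0.72 and 0.47), all over 0.1. The numbers were therefore taken as pairs in the pair ratios and the replicate block, while the main edgeR test did not use them. The evidence was weakest for number 1, whose Gli1+ library correlated more with the Gli1- library numbered 3 (0.27). The reverse combination of these numbers reached 0.11, so a value over 0.1 does not by itself single out the pairs. No source says that a number marks a mouse. P-values measure the spread between these libraries only. At 17114101 to 18602482 counts per library, counting error is small for the members, all of which had at least 174 counts in every library.

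The 10 members and all gene lists were chosen with earlier results of these data known. Named genes were the members, Gli1, all genes of the SPARC, thrombospondin, tenascin, fasciclin and CCN lists, the 3 most abundant genes of each other list and those with an unadjusted p under 0.05 and a log2 fold change over 1 in size, and the 3 genes most like Fn1, Sparc, Sparcl1 and Smoc1. For Sparcl1, 1 of these 3 is not reported here. Ltbp2, Pcolce, Itgb5, Col3a1, Dpt, Ly6a, Rgs5, Notch3, Myh11, Kcnj8, Des, Matn1, Eef1a1, Mtx1 and 8030451A03Rik were named after their values were seen. Marker genes under this rule are printed only where a member's values are set beside them. The lists of osteoblast (2 tested, 2 above 0), hypertrophic chondrocyte (6 tested, 2 above 0), erythroid (2 tested, 0 above 0), skeletal muscle (2 tested, 1 above 0) and adipocyte markers (1 tested, 0 above 0) are given here only.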

Additional observations from a re-analysis of the deposited data

How the results depend on the processing

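The count of genes called, 0 with edgeR, was 30 with DESeq2's Wald test, 428 with DESeq2 and the replicate block and 267 of 28536 genes (0.936%) with edgeR and no filter on low counts. It stayed at 0 with the other scalings, a stricter filter, limma-voom, edgeR with the replicate block and with each library left out (0 to 0). Members called were 1 with DESeq2, 2 with the block and 1 without the filter (Sparcl1 in all 3, Fn1 with the block). In settings chosen after seeing the data, DESeq2 with the block called 4 members (Postn, Sparcl1, Thbs2 and Smoc1) of 781 genes (5.09%) without both libraries numbered 1, and 2 members (Tnc and Sparcl1) of 174 (1.15%) without both numbered 2. These fits on fewer libraries estimate the spread poorly. The replicate block changed no other member's call. Signs turned for Postn (1.22) and Sparc (1.09) without Gli1- replicate 2 and for Thbs3 (-0.069) without Gli1+ replicate 2, with ranges over all libraries left out of -2.09 to 1.22, -2.26 to 1.09 and -0.069 to 1.36. The cause was not tested. Of the members' other values 177 kept their sign and whether they were called, and 10 kept the sign and became called. Values that kept both still moved across a log2 fold change of 1 in size. Tnc went from 1.79 to 0.38 without Gli1+ replicate 1, and Sparc from -0.91 to -2.26 without Gli1+ replicate 2. The members' share of counts differed by 1.53 to 4.002 percentage points with each library left out. With 3 libraries a side and a biological coefficient of variation of 0.66 (0.47 with the block), precision was limited by the spread between libraries rather than by depth.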
